A study of Mus musculus with 6 samples.

Results

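The T cell receptor signalling genes described here are 38 genes that carry, shape or end the signal from the T cell antigen receptor, out of 38483 genes in the deposited table. They were chosen by gene symbol, from textbook membership of the pathway, and fall into 20 activators, 14 negative regulators and 4 members with a dual role. All 38 had estimated counts high enough to be tested. The cells were splenic CD4+CD62L+ T cells, enriched with a selection kit, of wild-type (IL-17A+/+) and knockout (IL-17A-/-) mice, both on the B10.RIII background. Every culture was held for 3 days toward the Th17 state. The medium held IL-6 (10 ng/ml), IL-23 (10 ng/ml) and TGF-β (1 ng/ml), and IFN-γ (10 µg/ml of antibody) and IL-4 (10 µg/ml of antibody) were neutralized, so no unpolarized culture stands beside them. Each genotype had 3 stranded mRNA libraries, numbered 1 to 3, which the labels call biological replicates. The age of the mice is not given in the sources used here, nor is what a number marks, so p-values measure the spread between these libraries.

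The antigen receptor has no enzyme of its own. Its CD3 chains and CD247, the zeta chain, carry tyrosine motifs that LCK and FYN phosphorylate, ZAP-70 binds there and phosphorylates the scaffold LAT, and LAT gathers SLP-76, phospholipase C-γ1, GRB2 and SOS1, which open the calcium, Ras and NF-κB branches. Phosphatases, ubiquitin ligases and diacylglycerol kinases limit the same steps, and the strength of this signal is among the inputs that shape helper T cell differentiation.

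Il17a, the targeted gene, was at 161, 211 and 108 CPM (counts scaled to a common library total) in wild-type 1, 2 and 3. In knockout 1, 2 and 3 it was at 1.11, 0 and 0.0202 CPM. A value of 0 allows up to 3 counts, or 0.0631 CPM in knockout 2. The libraries held between 47335507 and 49743505 estimated counts, and 14824 to 15379 genes had at least 10. Xist, expressed from the inactive X chromosome of females, was at 567 to 664 CPM in knockout 3 and every wild-type library, and at 2.58 and 0 CPM in knockout 1 and knockout 2. Ddx3y, a Y-linked gene, was at 44.5 and 38 CPM in those latter libraries and at most 0.452 CPM elsewhere, so sex and genotype cannot be told apart in numbers 1 and 2. The 9 markers of CD4+ T helper cells summed to 3743, 3643 and 2928 CPM in wild-type 1, 2 and 3 and to 3036, 3517 and 2793 CPM in knockout, lower within each number. Singly they were mixed, with 4 fitted log2 differences above 0 and 5 below. Trac and Trbc2, of the receptor's own constant regions, were higher in knockout within every number. Of these 9, edgeR called 0 with or without the block and DESeq2 with the block called Cd5, Cd2 and Cd6 lower (Benjamini-Hochberg adjusted p of 0.002442, 0.007299 and 0.02009). The 8 B cell markers summed to 149.1 to 353.9 CPM in wild-type, against 334 to 757.6 CPM in knockout, and 5 CD8 T cell markers to 89.52 to 512.3 and 148.5 to 803.8 CPM. All 5 CD8 T cell markers, 4 of 5 NK cell markers and all 6 tested myeloid markers of 8 also had higher fitted means in knockout. With the block, DESeq2 called 5 of 8 B cell, 2 of 5 CD8 T cell, 2 of 5 NK cell (Klrd1 and Klrk1) and 3 of 6 myeloid markers. Those called were all higher in knockout, where 2.52% of all genes were called in either direction. edgeR called 0 of these markers with or without the block. In bulk RNA, fewer cells of a type and less RNA per cell cannot be told apart, and the part of these cells in the results that follow was not tested.

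The comparison asked whether loss of IL-17A changed these genes, and none of the 38 passed the test. edgeR's quasi-likelihood test with Benjamini-Hochberg adjustment called 0 of 15121 genes (background 0%), and 0 members also had an unadjusted p under 0.05, against 253 of all genes (1.67%). Il17a, the targeted gene, was among those not called, at a log2 difference of -8.70 and an adjusted p of 0.9999 in edgeR. The threshold thus missed even that loss, and a miss by a member says little by itself. Without a block, DESeq2 did call Il17a (adjusted p of 0.008548). DESeq2 called 13 genes (0.0862%) and limma-voom 0, with 0 members among them. At an unadjusted p under 0.05, DESeq2 held 0 members (2.45% of all genes) and limma-voom 0 (1.83%). With the replicate number blocked, DESeq2 called 374 of 14827 genes (2.52%) and again 0 members, while edgeR and limma-voom called 0 genes. At an unadjusted p under 0.05, the blocked fits held 2 members in edgeR (9.73% of all genes), 4 in DESeq2 (10.6%) and 2 in limma-voom (10.9%).

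The fitted differences were small. On the log2 scale, knockout minus wild-type, they ran from -0.32 for Malt1 to 0.25 for Dusp2, with 19 members above 0 and 19 below. The median size of a member's difference was 0.087, beside 0.166 over all tested genes. The 95% interval lay within a 2-fold change either way for 33 of 38 members without the block and for 38 of 38 with it. Within 1.5-fold it lay for 20 without the block and 34 with it. It is these intervals, and not the missed threshold, that bound most members to less than a 2-fold change. They do not show that the genotypes were equal, and without the block that of Cbl ran from -1.81 to 1.97.

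**Figure D1:**
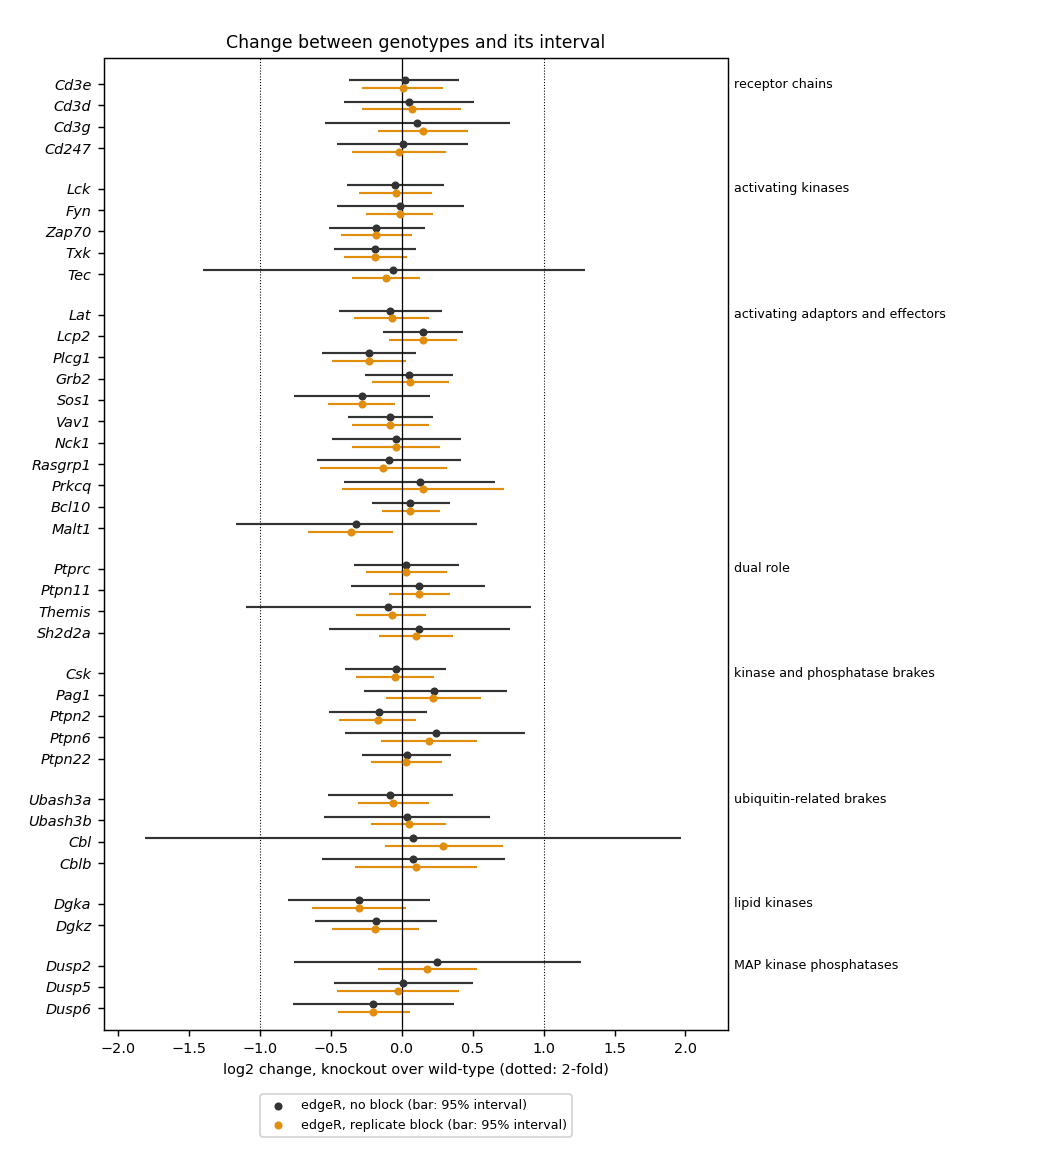
Fitted log2 difference, knockout over wild-type, for each of the 38 members by role (horizontal axis, log2 units), with bars for the 95% interval from edgeR without (black) and with (orange) a block for the replicate number. Every black interval includes 0, every orange interval lies inside the dotted 2-fold lines, and the orange intervals of Sos1 and Malt1 lie below 0.

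Activators and negative regulators did not separate. The median log2 difference was -0.042 over the 20 activators, with 8 above 0 and 12 below, and 0.022 over the 14 negative regulators, with 8 above and 6 below. The median over all tested genes was 0.013. Within the numbers 1, 2 and 3, the activators' median log2 ratio was -0.11, -0.03 and -0.06, and that of the negative regulators -0.08, 0.09 and -0.09. Over all tested genes these medians were 0.02, 0.00 and -0.01. The activators' median lay below that of all genes in each number. That of the negative regulators lay above it in number 2 only, so their sign differed between numbers. These differences were not tested.

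Groups that did not overlap, with every library of one genotype above every library of the other, were seen for 3 members (7.89%), against 929 of all tested genes (6.14%). These were the activators Txk and Plcg1, lower in knockout (3.13% of all genes), and Lcp2, higher in knockout (3.01%). A further measure, the same direction within all 3 numbers, held for 11 members (28.9%) and for 5023 of all genes (33.2%). Of these 11, Zap70, Txk, Plcg1, Sos1, Malt1, Dgka and Dusp6 were lower in knockout (16.7% of all genes) and Lcp2, Bcl10, Ptpn11 and Pag1 higher (16.6%). Both shares lay near the background.

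**Figure D2:**
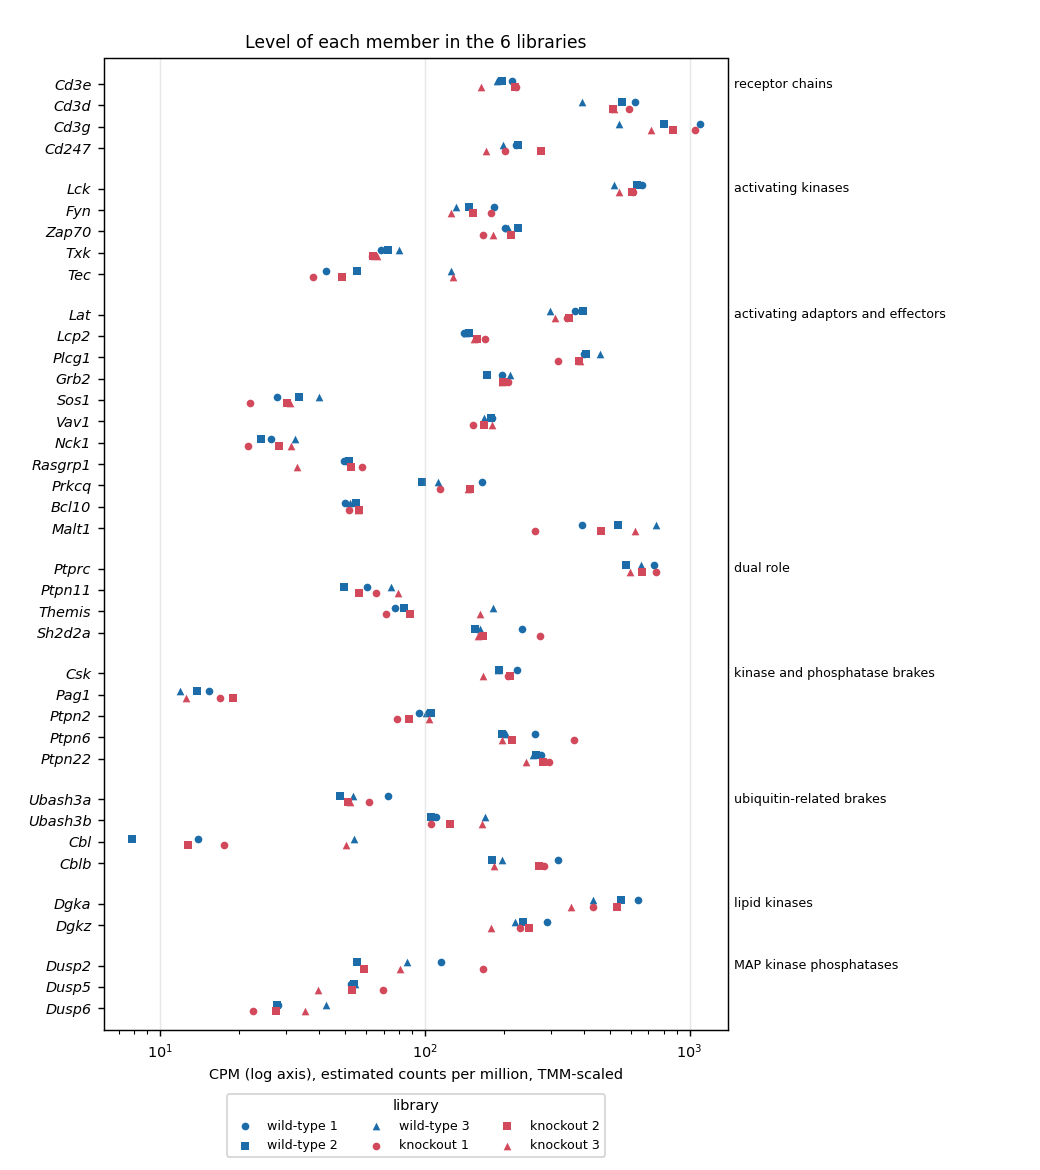
CPM of each member in each of the 6 libraries on a log axis, by role; blue marks wild-type, red knockout, and the marker shape gives the replicate number. Libraries of the 2 genotypes intermix for 35 of 38 members, while Tec, Cbl and Themis show their highest values in both libraries numbered 3.

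The receptor chains were among the most abundant members. Per transcript length (TPM, counts scaled by length and library total, over protein-coding transcripts), Cd3g led at a mean of 481.7 (range over libraries 355 to 646.5), followed by Cd3d at 371.8 (289.9 to 433.7), and these ranges overlap. Cd3e and Cd247 stood at 129.3 and 118 TPM. Cd3g (chr9:44969572-44980431 on GRCm38, minus strand) encodes the gamma chain of the receptor complex. It was at 1092, 801.6 and 543.8 CPM in wild-type 1, 2 and 3 and at 1047, 865.9 and 716 CPM in knockout 1, 2 and 3. The libraries numbered 1 were the highest and those numbered 3 the lowest in both genotypes, and the genotypes overlapped. The means were 812.3 ± 274.1 and 876.3 ± 165.8 CPM (SD, n = 3 each), a log2 difference of 0.11 (SE 0.27) with an adjusted p of 0.9999 in edgeR. Without wild-type 3 this turned to -0.12, and without knockout 1 to -0.05. Between 38.1% and 48.3% of the counts of Cd3g were assigned to a 294 nt transcript annotated as a retained intron, which is why protein-coding transcripts alone set the levels above. The other chains had log2 differences of 0.01 (Cd247), 0.02 (Cd3e) and 0.05 (Cd3d), so 4 of 4 chains lay above 0 without the block and 0 passed the test. With the block, Cd247 turned to -0.02 in edgeR.

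The activating kinases all lay below 0, at -0.01 (Fyn) to -0.19 (Txk) on the log2 scale, and 0 of 5 passed the test. Txk (chr5:72695978-72752773, minus strand) encodes a TEC-family kinase of T cells that phosphorylates phospholipase C-γ1. It was at 68.44, 72.51 and 80.24 CPM in wild-type and at 63.52, 64.11 and 66.06 CPM in knockout. Every knockout library lay below every wild-type library, and the knockout values were the more alike. The means were 73.73 ± 5.997 and 64.56 ± 1.331 CPM (SD, n = 3 each). The log2 difference was -0.19 (SE 0.12, 95% interval -0.48 to 0.10), with an adjusted p of 0.9999 in edgeR. Zap70, the kinase that docks on the phosphorylated chains, had a mean of 211.1 ± 11.92 CPM in wild-type, against 186.7 ± 23.45 CPM in knockout. Its log2 ratio was below 0 in all 3 numbers, at -0.28, -0.08 and -0.19, though the groups overlapped.

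Lck, whose product is the kinase that starts the cascade from the CD4 coreceptor, was the most abundant kinase, at 606.7 ± 75.79 CPM in wild-type, against 586.3 ± 40.29 CPM in knockout. It was picked for a closer description after its values had been seen, because the table splits its counts between transcripts with different first exons. The distal promoter is known for its use in mature T cells and the proximal promoter for its use in thymocytes. The distal first exon lies at chr4:129573515-129573641 (127 nt) and the proximal first exon at chr4:129558288-129558372 (85 nt), on the minus strand of GRCm38. The RefSeq promoter windows (GRCm38.p6) of 300 bases around each start lie at chr4:129573592-129573891 and chr4:129558323-129558622. They are shown because the 2 leading transcripts start in them. Capitals mark the RUNX core TGTGGT in the distal window and the GC box GGGCGG in the proximal window.
Lck distal promoter: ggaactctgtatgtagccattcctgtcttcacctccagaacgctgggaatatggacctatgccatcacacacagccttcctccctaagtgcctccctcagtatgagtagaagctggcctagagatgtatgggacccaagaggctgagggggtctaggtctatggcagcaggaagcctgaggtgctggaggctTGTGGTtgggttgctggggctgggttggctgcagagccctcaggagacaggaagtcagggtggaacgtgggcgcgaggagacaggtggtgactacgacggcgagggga
Lck proximal promoter: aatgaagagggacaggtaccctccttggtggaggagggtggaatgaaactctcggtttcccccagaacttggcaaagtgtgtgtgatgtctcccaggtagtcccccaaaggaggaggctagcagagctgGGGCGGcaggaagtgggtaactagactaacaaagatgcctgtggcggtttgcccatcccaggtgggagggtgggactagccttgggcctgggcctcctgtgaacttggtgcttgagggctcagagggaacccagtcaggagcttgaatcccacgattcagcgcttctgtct

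The distal transcript Lck-001 held 69.3%, 53.9% and 70.4% of the counts of Lck in wild-type 1, 2 and 3 and 48.5%, 48.9% and 59.0% in knockout. The proximal transcript Lck-201 held 13.3%, 33.0% and 10.0% in wild-type and 30.5%, 33.9% and 22.7% in knockout. Within each number the distal share was lower and the proximal share higher in knockout, yet wild-type 2 lay inside the knockout range for both, so the genotypes overlapped. The distal share averaged 64.6% ± 9.2 in wild-type and 52.1% ± 6.0 in knockout (SD, n = 3 each), a difference of -12.4 percentage points with an exact permutation p of 0.2 (two-sided). For 3 libraries against 3 this test cannot go below 0.1, and over the 18 members tested for their leading transcript the Benjamini-Hochberg value of this exact test was 1. The proximal share had an exact permutation p of 0.3. Of the 18 members tested, 0 passed, and 13 of the 38 have only 1 transcript in the table.

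**Figure D3:**
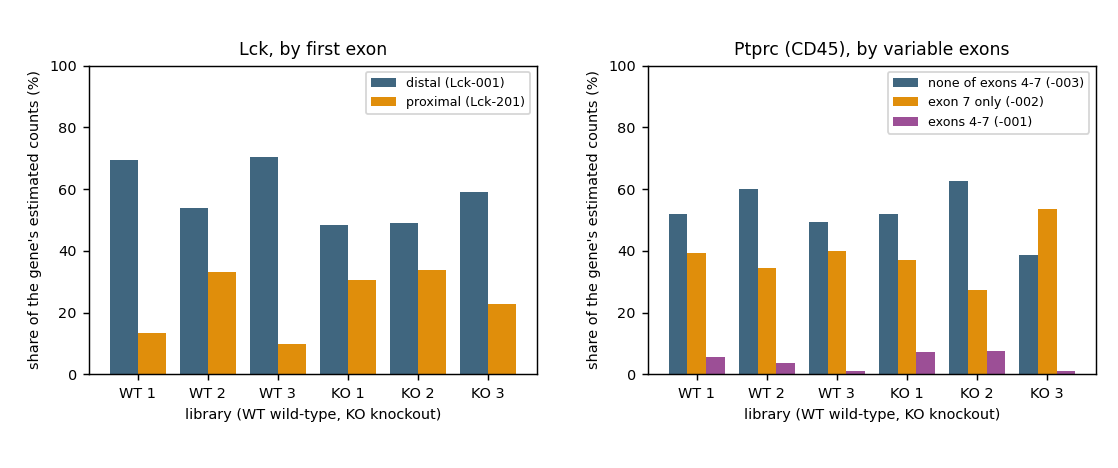
Share of the estimated counts of Lck (left) and Ptprc (right) held by named transcripts in each library, in percent, 1 bar per transcript and library. The distal Lck share is 48.5% to 59.0% in knockout and 53.9% to 70.4% in wild-type, and the Ptprc transcript with exons 4 to 7 stays at or below 7.6%.

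Groups that did not overlap in this share were seen for 1 of the 18 members, against 363 of 5521 tested genes under the same criteria (6.57%), a share near the background. That member was Grb2, an adaptor that brings SOS1 to LAT. Its leading transcript Grb2-002, with a first exon at chr11:115708394-115708597, held 40.7%, 40.9% and 41.0% of its counts in wild-type and 49.3%, 45.0% and 44.0% in knockout. The groups differed by 5.2 percentage points, with an exact permutation p of 0.1 and a Benjamini-Hochberg value of 1. The second transcript, Grb2-001, was also higher in knockout, at 37.7%, 35.7% and 35.1% against 32.2%, 26.7% and 31.5%. Transcript shares rest on how the estimate divides reads that fit several transcripts, and the error of that division is not in the table.

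Adaptors and effectors that carry the signal onward numbered 11, with 4 log2 differences above 0, 7 below and 0 past the test. Lcp2 (chr11:34046920-34092295, plus strand) encodes SLP-76, the adaptor that binds phospholipase C-γ1 next to LAT. It was at 141.1, 147.2 and 143.6 CPM in wild-type and at 168.9, 157.1 and 153.6 CPM in knockout. All knockout libraries lay above all wild-type libraries, and the wild-type values were close together. The means were 144 ± 3.035 and 159.9 ± 8.023 CPM (SD, n = 3 each), a log2 difference of 0.15 (SE 0.12, 95% interval -0.13 to 0.43) with an adjusted p of 0.9999 in edgeR.

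Plcg1 (chr2:160731300-160775760, plus strand) encodes phospholipase C-γ1, which makes the messengers for calcium release and for RASGRP1 and PKC-θ. It was at 401.3, 408.5 and 461 CPM in wild-type and at 320.2, 381.2 and 385.5 CPM in knockout. Every knockout library lay below every wild-type library, and knockout 1 was the lowest. The means were 423.6 ± 32.59 and 362.3 ± 36.54 CPM (SD, n = 3 each). On the log2 scale knockout differed by -0.23 (SE 0.14, 95% interval -0.56 to 0.10), the smallest unadjusted p of all members at 0.149, with an adjusted p of 0.9999 in edgeR. With the block, DESeq2's Benjamini-Hochberg adjusted p for Plcg1 was 0.3295.

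The promoter windows of the 3 members whose groups did not overlap are shown side by side, from RefSeq on GRCm38.p6. They lie at chr5:72752728-72753027 (minus strand, Txk), chr11:34046678-34046977 (plus strand, Lcp2) and chr2:160731060-160731359 (plus strand, Plcg1). Capitals mark matches to the motifs searched, which are the NFAT core GGAAAA in Lcp2 and, in Plcg1, the CCAAT box and 2 GC boxes read on the other strand as CCGCCC. The Txk window held no match. It takes in the start of the gene's leading transcript, with 85.7% to 94.7% of the counts of Txk. The other 2 windows lie ahead of the leading transcripts of Lcp2 (68.5% to 75.3% of the counts, starting at 34047201) and Plcg1 (87.4% to 93.1%, starting at 160731733), which begin outside them.
Txk promoter: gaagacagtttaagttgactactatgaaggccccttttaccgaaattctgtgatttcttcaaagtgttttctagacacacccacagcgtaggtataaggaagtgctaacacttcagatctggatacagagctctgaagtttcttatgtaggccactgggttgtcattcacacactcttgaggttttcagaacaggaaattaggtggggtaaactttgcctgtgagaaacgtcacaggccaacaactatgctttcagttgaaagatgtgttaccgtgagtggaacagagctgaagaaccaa
Lcp2 promoter: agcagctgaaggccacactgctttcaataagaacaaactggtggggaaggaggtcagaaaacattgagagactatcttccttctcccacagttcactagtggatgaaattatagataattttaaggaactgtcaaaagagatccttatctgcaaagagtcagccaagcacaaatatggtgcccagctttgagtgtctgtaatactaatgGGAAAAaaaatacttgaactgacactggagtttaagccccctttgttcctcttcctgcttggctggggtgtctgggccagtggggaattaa
Plcg1 promoter: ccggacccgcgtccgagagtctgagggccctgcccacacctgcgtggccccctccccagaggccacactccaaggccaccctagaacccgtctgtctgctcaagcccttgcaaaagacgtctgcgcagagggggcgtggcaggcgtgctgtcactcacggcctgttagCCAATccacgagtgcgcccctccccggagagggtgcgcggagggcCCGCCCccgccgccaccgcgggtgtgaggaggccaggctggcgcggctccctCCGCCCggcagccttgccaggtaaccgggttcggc

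A match of letters is a description and not a binding site. The 3 windows shared no motif among those searched. They also differed in base composition, with G or C at 42.7% of the bases in Txk, 43.3% in Lcp2 and 72% in Plcg1. The motifs were searched on both strands in all 32851 RefSeq promoter windows of this length, and 34 of 38 members entered, with 49 windows. Member windows on chromosome 18, which carries Malt1 and Ptpn2, were left out. No such limit was set on the 32851 windows. The GC box GGGCGG stood in 22 of the members' windows (44.9%) and in 35.7% of all, CCAAT in 13 (26.5%) against 37.4%, GGAAAA in 8 (16.3%) against 23.4%, and TGTGGT in 6 (12.2%) against 16.8%. The ETS core CCGGAAG stood in 2 (4.08%) against 8.86%, the TATA box TATAAA in 4 (8.16%) against 13.6%, and the cyclic AMP element TGACGTCA in 2 (4.08%) against 1.79%. The AP-1 element TGANTCA was in 0 of 49 and in 7.81% of all windows. Some genes have several windows, which are counted singly.

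Sos1 (chr17:80393752-80480453, minus strand) encodes the exchange factor that loads Ras with GTP, and had the lowest level per length among the activators, at 3.194 TPM. It was at 27.82, 33.55 and 40.01 CPM in wild-type and at 21.97, 30.36 and 31.05 CPM in knockout. Knockout was the lower within each number, but the groups overlapped because wild-type 1 lay below knockout 2 and knockout 3. The means were 33.79 ± 6.096 and 27.79 ± 5.051 CPM (SD, n = 3 each), a log2 difference of -0.28 (SE 0.20) with an adjusted p of 0.9999 in edgeR. With the replicate block the difference was -0.28 (SE 0.10, 95% interval -0.52 to -0.05) and edgeR's Benjamini-Hochberg adjusted p was 0.4591, the smallest of any member in that fit.

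Malt1 was named after its values had been seen, because its difference was the largest in size among the 38. It encodes the protease and scaffold that joins BCL10 in the complex that activates NF-κB. It was at 392.4, 534.9 and 750 CPM in wild-type and at 260.4, 462.1 and 620.8 CPM in knockout. Within each number the knockout library was the lower, with log2 ratios of -0.59, -0.21 and -0.27, while between numbers the level moved further than between genotypes. The means were 559.1 ± 180 and 447.8 ± 180.6 CPM (SD, n = 3 each), a log2 difference of -0.32 (SE 0.36, 95% interval -1.17 to 0.53) and an adjusted p of 0.9999 in edgeR. With the replicate block the interval narrowed to -0.66 to -0.06. The Benjamini-Hochberg adjusted p was then 0.4608 in edgeR and 0.08617 in DESeq2, the nearest approach to the threshold by any member in any of the fits to all 6 libraries.

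The other members of this group moved less. Vav1, a signalling adaptor, and Lat, the membrane scaffold, had log2 differences of -0.08 each, and Nck1, an adaptor to the actin machinery, -0.04. Rasgrp1, the diacylglycerol-bound Ras activator, averaged 51.06 ± 1.359 CPM in wild-type, against 47.95 ± 13.18 CPM in knockout, with its log2 ratio at 0.22, 0.02 and -0.64 in numbers 1, 2 and 3. Prkcq, which encodes PKC-θ, had log2 ratios of -0.52, 0.59 and 0.38, so neither gene kept a direction. Bcl10 had the narrowest interval of the group with the block, at -0.14 to 0.27, around a difference of 0.06.

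The dual-role members help or limit the signal by context, and 0 of 4 passed the test. Ptpn11 (chr5:121130533-121191397, minus strand) encodes SHP-2, a phosphatase that promotes Ras signalling and also acts behind inhibitory receptors. It was at 60.68, 49.78 and 74.73 CPM in wild-type and at 65.61, 56.36 and 79.07 CPM in knockout. Knockout was the higher within each number, and the order of the numbers was the same in both genotypes, so the groups overlapped. The log2 difference was 0.12 (SE 0.20) with an adjusted p of 0.9999 in edgeR, and it turned to -0.01 without wild-type 2 and to -0.04 without knockout 3. Sh2d2a, which encodes the LCK-binding adaptor TSAd, had a log2 difference of 0.12, and Themis, which tunes receptor signals with SHP-1, of -0.10.

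Ptprc encodes CD45, the phosphatase that both frees LCK from its inhibitory tyrosine and dephosphorylates its activating one. It was at 735.2, 574 and 655.9 CPM in wild-type and at 750.5, 659.4 and 597.5 CPM in knockout, a log2 difference of 0.03 (SE 0.16). Its variable exons 4, 5 and 6, and exon 7 after them, lie between chr1:138116954 and 138122584 on GRCm38, with lengths of 129, 147, 141 and 72 nt in GENCODE vM21. The transcript without exons 4 to 7, Ptprc-003, held 51.8%, 60.1% and 49.2% of the counts in wild-type and 52.0%, 62.6% and 38.5% in knockout. Ptprc-002, with exon 7 alone of these, held 39.2%, 34.3% and 40.0% and 37.1%, 27.4% and 53.7%. Transcripts without exons 4 to 6 thus made up most of the counts in every library. Short CD45 forms are known from activated and memory T cells.
The transcript with exons 4 to 7, Ptprc-001, whose long protein form is known from B cells, held 5.7%, 3.7% and 1.1% in wild-type and 7.1%, 7.6% and 1.2% in knockout. Its mean share was 3.5% ± 2.3 and 5.3% ± 3.5 (SD, n = 3 each; exact permutation p of 0.5, two-sided). The 8 B cell markers, summed, were at 353.9, 206.8 and 149.1 CPM in wild-type, against 757.6, 460.7 and 334 CPM in knockout. Within each genotype both were lowest in the library numbered 3. Between libraries their order differed, since knockout 2 had a higher share than knockout 1 with fewer B cell markers, and knockout 3 a lower share than wild-type 2 with more. The part of B cells in this share was not tested.

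The negative regulators were measured across a similar range of levels, from Dgka at 161.3 and Ptpn6 at 141.5 TPM over protein-coding transcripts to Cbl at 4.86 and Pag1 at 1.672 TPM. Of the 5 kinase and phosphatase brakes, 3 had log2 differences above 0, 2 below, and 0 passed the test. Ptpn2 encodes TC-PTP, a phosphatase that dephosphorylates LCK, FYN and several JAK and STAT proteins, and had the smallest unadjusted p of this group. It was at 95.69, 105.8 and 101.5 CPM in wild-type and at 79.04, 87.63 and 103.7 CPM in knockout. Knockout 1 and knockout 2 lay below all wild-type libraries, and knockout 3 lay between wild-type 3 and wild-type 2. In edgeR the log2 difference came to -0.16 (SE 0.14, 95% interval -0.51 to 0.18), with an adjusted p of 0.9999.

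Ptpn6 (chr6:124720707-124738714, minus strand) encodes SHP-1, the phosphatase of inhibitory receptors. It had the highest level per length among the negative regulators over all its transcripts, at 196.4 TPM, but not over its protein-coding ones, where Dgka was above it. It was at 260.6, 196 and 202.1 CPM in wild-type and at 366.1, 213.8 and 195.7 CPM in knockout. Both libraries numbered 1 were the highest of their genotype and knockout 1 the highest of all. The log2 difference of 0.24 (SE 0.27, adjusted p of 0.9999 in edgeR) rested on that library and was -0.11 without it. SHP-1 is also known from B cells, myeloid cells and other blood cells, and summed B cell markers were likewise highest in knockout 1, at 757.6 CPM; their part in this value was not tested.

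Pag1 (chr3:9687479-9833679, minus strand) encodes the membrane adaptor that holds CSK, the kinase that places the inhibitory phosphate on LCK. Its level per length was the lowest of all 38. It was at 15.38, 13.8 and 11.91 CPM in wild-type and at 16.85, 18.92 and 12.53 CPM in knockout. Knockout was the higher within each number, and the groups overlapped in knockout 3. The log2 difference was 0.23 (SE 0.21, 95% interval -0.27 to 0.74) with an adjusted p of 0.9999 in edgeR. Csk itself had a log2 difference of -0.04 and Ptpn22, which encodes the phosphatase that partners CSK, of 0.04.

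The ubiquitin-related brakes comprise the ligases Cbl and Cblb, which mark signalling proteins for removal, and the UBASH3 proteins, which bind ubiquitin and carry a phosphatase domain. Of these 4, 3 log2 differences lay above 0, 1 below, and 0 passed the test. Ubash3a (chr17:31207873-31242202, plus strand) was at 72.5, 48.05 and 53.92 CPM in wild-type and at 61.82, 51.28 and 52.4 CPM in knockout. The libraries numbered 1 were the highest of each genotype and the groups overlapped. The log2 difference was -0.08 (SE 0.19, adjusted p of 0.9999 in edgeR) and turned to 0.12 without wild-type 1. Ubash3b and Cblb had log2 differences of 0.04 and 0.08.

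Diacylglycerol kinases end the signal to RASGRP1 by phosphorylating its lipid messenger. Summed over all transcripts, both lay below 0 in knockout, with 0 of 2 past the test. Dgka (chr10:128720141-128744056, minus strand) was at 640, 553 and 432.7 CPM in wild-type and at 433.7, 532.7 and 355.7 CPM in knockout. The knockout library was the lower in every number, by a log2 ratio of -0.56, -0.05 and -0.28, while wild-type 3 lay below 2 of the knockout libraries. The means were 541.9 ± 104.1 and 440.7 ± 88.68 CPM (SD, n = 3 each). Its log2 difference of -0.30 (SE 0.21, 95% interval -0.80 to 0.20) had an adjusted p of 0.9999 in edgeR, and 0.2957 in DESeq2 with the block, Benjamini-Hochberg adjusted. Dgkz had a log2 difference of -0.18 (SE 0.18) and ratios of -0.34, 0.07 and -0.30 in numbers 1, 2 and 3. Its protein-coding transcripts stood at 15.33 TPM, against 148.1 TPM over all. Dgkz-013, annotated for nonsense-mediated decay, held 32.4% to 52.4% of its counts. The coding Dgkz-001, Dgkz-002 and Dgkz-003 each had fewer counts in knockout than in wild-type in number 1 and more in numbers 2 and 3. In number 3 they thus went against the ratio of the gene.

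The MAP kinase phosphatases switch off ERK and its relatives and are themselves induced by the signal. Dusp6 (chr10:99263231-99267488, plus strand), which acts on ERK in the cytoplasm, was at 27.95, 27.8 and 42.53 CPM in wild-type and at 22.6, 27.6 and 35.28 CPM in knockout. The libraries numbered 3 were the highest of each genotype, and the groups overlapped. Without wild-type 3, its log2 difference of -0.20 (SE 0.24, adjusted p of 0.9999 in edgeR) became 0.02. Dusp2 and Dusp5, which act in the nucleus, had log2 differences of 0.25 and 0.01, and 0 of 3 passed the test. Dusp2 had ratios of 0.52, 0.10 and -0.09, and Dusp5 of 0.41, -0.03 and -0.46, so their direction differed between numbers.

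The members differed more between replicate numbers than between genotypes. On log2(CPM + 0.5), the number took a median of 72.7% of a member's variance over the 6 libraries and the genotype 5.6%, beside 65.6% and 8.9% over all tested genes. The number's share was the larger for 33 of 38 members and for 12794 of 15121 genes, though the number has 2 degrees of freedom and the genotype 1. The genotype's share was the larger for Txk (65.0% against 25.8%), Lcp2 (73.7% against 6.9%), Plcg1 (53.1% against 37.7%), Vav1 (22.2% against 14.4%) and, barely, Prkcq (8.1% against 8.0%). What a number marks is not given in the sources used here, so these values describe libraries.

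The widest moves between numbers were those of Cbl and Tec, named after their values had been seen. Cbl was at 13.98, 7.89 and 54.17 CPM in wild-type and at 17.44, 12.76 and 50.42 CPM in knockout. Tec, which encodes another kinase of the TEC family, was at 42.55, 55.58 and 125.4 CPM and at 37.83, 48.71 and 128.4 CPM. In both genes each library numbered 3 was above all libraries of the other numbers, and the genotypes nearly coincided there. The number took 95.5% of the variance of Cbl and 98.9% of that of Tec, and number 3 exceeded number 1 by 1.71 and 1.65 on the log2 scale. The interval on the genotype difference of Cbl therefore narrowed from -1.81 to 1.97 without the block to -0.12 to 0.71 with it.

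The promoter windows of these 2 genes are shown because both stood highest in the libraries numbered 3, at chr9:44233997-44234296 (Cbl) and chr5:72868399-72868698 (Tec), both on the minus strand of GRCm38.p6, from RefSeq. Capitals mark GC boxes, of which Cbl held 4 and Tec 2, counting both strands.
Cbl promoter: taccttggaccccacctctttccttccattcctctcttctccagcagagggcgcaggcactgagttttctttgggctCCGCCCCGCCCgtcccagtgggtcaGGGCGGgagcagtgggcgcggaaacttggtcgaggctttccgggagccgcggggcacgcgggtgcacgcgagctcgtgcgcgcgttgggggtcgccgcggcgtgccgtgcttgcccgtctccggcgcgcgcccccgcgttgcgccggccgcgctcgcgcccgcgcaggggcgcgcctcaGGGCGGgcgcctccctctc
Tec promoter: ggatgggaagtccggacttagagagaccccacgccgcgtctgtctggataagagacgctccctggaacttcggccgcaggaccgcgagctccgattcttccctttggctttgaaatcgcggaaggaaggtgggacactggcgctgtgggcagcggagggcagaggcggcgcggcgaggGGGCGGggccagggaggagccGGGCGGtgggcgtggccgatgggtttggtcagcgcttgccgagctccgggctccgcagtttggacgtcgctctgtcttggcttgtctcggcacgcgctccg

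Not all of the counts of Tec belong to that start. Tec-007, a transcript annotated for nonsense-mediated decay that begins inside the gene at chr5:72786020, held 41.7%, 59.8% and 18.9% of them in wild-type and 48.1%, 53.3% and 14.1% in knockout. Its share was lowest in the libraries numbered 3, where the gene's level was highest. Cbl has 1 transcript in the table.

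Themis was likewise highest in the libraries numbered 3, at 181.3 and 161.3 CPM against 71.81 to 87.86 CPM in the others, and so was Malt1. Other members stood highest in the libraries numbered 1. Number 3 lay below number 1 by a log2 difference of -0.78 in Cd3g, -0.73 in Dusp2, -0.66 in Cblb, -0.65 in Sh2d2a and -0.63 in Ptpn6. The number 1 libraries also held the highest Cd8a, the CD8 coreceptor, at 257 and 425 CPM against 33.7 to 66.1 CPM, and the highest summed NK cell markers, at 303.1 and 555.6 CPM against 77.07 to 153.6 CPM. Klrd1 (196.5 and 333 CPM) and Klrk1 (102.5 and 220.5 CPM) made up most of that sum. Of the other NK cell markers, Ncr1 was lowest in the number 1 libraries, at 0.1232 and 0.09775 CPM. Klrb1c was highest in knockout 2, at 2.046 CPM, and Klra8 in wild-type 1, at 3.08 CPM. Cd3g is expressed by CD8 T cells too. The part of those cells in the differences between numbers was not tested.

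**Figure D4:**
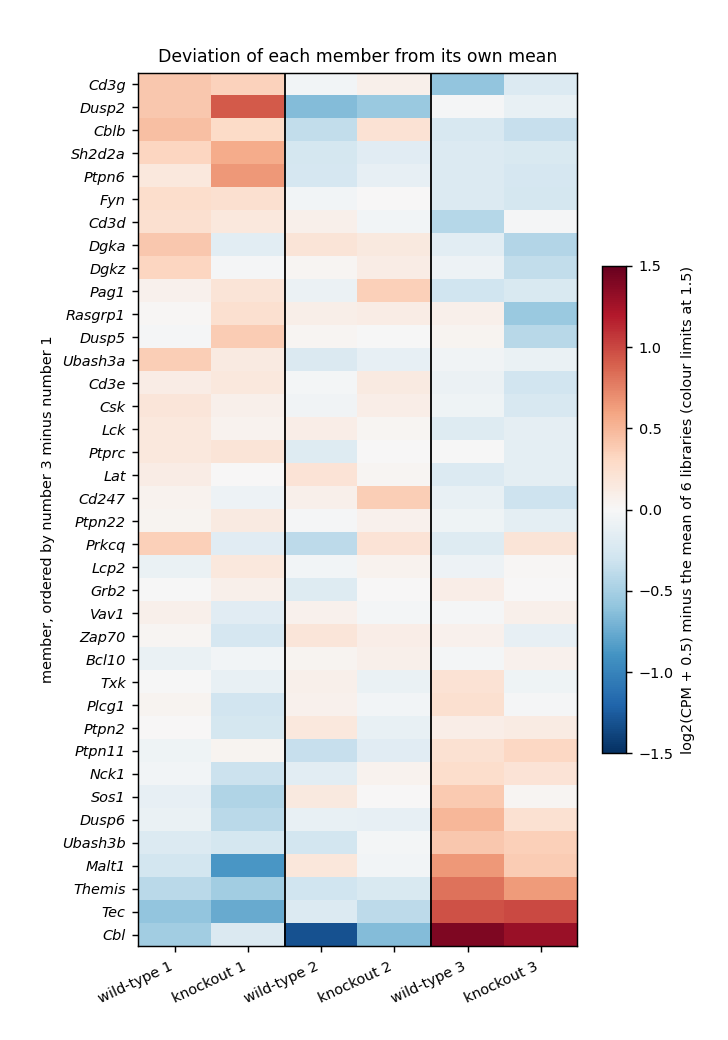
Deviation of each member from its own mean over the 6 libraries, on log2(CPM + 0.5), with 1 row per member ordered by number 3 minus number 1 and 1 column per library; red is above the mean, blue below. Columns of the same number resemble each other, from Cd3g at the top (high in number 1) to Tec and Cbl at the bottom (high in number 3).

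Beyond the 38 members, 68 other genes of the same pathway were read in the same fits, and 0 were called by edgeR without the block. Of these, 33 had log2 differences above 0 and 35 below, with a median of -0.004, beside 7926 above and 7195 below over all tested genes. With the block, DESeq2 called 3 of the 68, all lower in knockout, against 1.49% of all genes, while edgeR with the block called 0 of 68. Fyb, an adaptor that links SLP-76 to integrin activation, was at 284.9, 270.8 and 171 CPM in wild-type, against 221.4, 213.7 and 114.5 CPM in knockout, with a log2 difference of -0.44 (SE 0.11) and an adjusted p of 0.00788 in DESeq2 and 0.3867 in edgeR. Cish, a cytokine-induced inhibitor that also acts on phospholipase C-γ1, was at 275, 392.1 and 348.3 CPM and at 210.6, 320.5 and 258.8 CPM, with a difference of -0.38 (SE 0.10) and an adjusted p of 0.01192 in DESeq2 and 0.3927 in edgeR. Both were lower in knockout within every number, with overlapping groups. The remaining gene was Cd5, a surface brake on the receptor, at 344.1, 311.4 and 311.8 CPM in wild-type, against 193.6, 234.1 and 233.8 CPM in knockout, where the groups did not overlap and the adjusted p was 0.002442 in DESeq2 and 0.3738 in edgeR. Cd5, Cd4 and Cd28 are also among the T helper cell markers above, so this call of Cd5 is the same one given there.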

How the data were processed

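Estimated counts per transcript were deposited for 93480 transcripts in 6 libraries. Per the submitters' processing notes, reads were handled with Bowtie2 2.1.0 and eXpress 1.3.1 on GRCm38. The annotation release is not given in the sources used here. Whole numbers, to within 1e-04, made up 0.02% of the values above 0.5, and the deposited values were therefore read as estimated counts. The estimated counts were summed per gene identifier and rounded. The table held 0 per-sample columns that went unused. CPM values were counts over TMM-scaled totals. TPM values were computed from the deposited counts and transcript lengths.

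The members, the other pathway genes and the tests were chosen with earlier results of these data known. The main test was edgeR 4.0.16's quasi-likelihood test without a block, after filterByExpr, on 15121 genes, Benjamini-Hochberg adjusted, at a threshold of 0.05. DESeq2 1.42.0 and limma 3.58.1 (voom) were alternatives, in R 4.3.3. Python 3.11.15, scipy 1.17.1 and matplotlib 3.10.9 served for the exact tests and plots. The edgeR, DESeq2 and limma-voom fits to all 6 libraries, with and without the block, were tried on simulated data. Fits with other scaling, without the filter or with libraries left out were not. Transcript shares were tested for members at 1 CPM or more with at least 2 transcripts at a mean share of 10% or more. Ratios within a number used CPM + 0.5. Floors of 3 counts, at 0.0603 to 0.0634 CPM, cover counting error only, while the 95% intervals of edgeR also hold the spread between libraries.

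The genotypes share the numbers 1 to 3. Across genes, same-number libraries correlated in their deviations from group means at 0.4828, 0.3281 and 0.4905, and libraries differing in number and genotype at -0.3647 to -0.1251. By the rule that every same-number correlation exceed 0.1, the samples were treated as paired by number in the blocked fits and in ratios within a number. The main test and the exact test of transcript shares did not use the pairing. SEs, intervals and p-values given without mention of the block therefore ignore it. The replicate block took edgeR's common dispersion from 0.1691 to 0.06012.

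Full values are given, by rule, for members called in any fit to all 6 libraries, with the smallest unadjusted p in their role, with groups that did not overlap, or with the highest or lowest level per length among activators or negative regulators. Promoter sequences are RefSeq's.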

Additional observations from a re-analysis of the deposited data

How the results depend on the processing

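The number of members called was 0 in all 20 settings, of which 8 used all libraries and 12 left some out. The number of genes called over the whole table was 0 in edgeR and limma-voom, with or without the replicate block. It was 13 in DESeq2 without the block and 374 with it, and 0 to 264 when libraries were left out. Without knockout 1 edgeR called 1 gene, and without number 1 edgeR with the block called 8. DESeq2 with the block, a setting that was chosen after seeing the data where a number was left out, called 177, 264 and 147 genes without numbers 1, 2 and 3. The smaller counts come from fits to fewer libraries.

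The median log2 change of the activators ran from -0.05 to -0.04 over the settings with all libraries and from -0.11 (without wild-type 3) to 0.00 (without knockout 3) with libraries left out, with -0.09 without number 2 in DESeq2 with the block. That of the negative regulators ran from -0.01 to 0.02 and from -0.11 (without number 2, in DESeq2 with the block) to 0.08 (without number 3, likewise), with -0.10 without knockout 1 and -0.09 without number 2 in edgeR with the block. Of the 12 genes named by rule, 7 kept their direction in all 20 settings. The other 5 turned when a library was left out. The ranges over these settings were -0.12 to 0.38 for Cd3g, -0.04 to 0.27 for Ptpn11, -0.11 to 0.38 for Ptpn6, -0.19 to 0.12 for Ubash3a and -0.41 to 0.02 for Dusp6. Ubash3a also turned to 0.03 without number 1 in both blocked fits, and the cause was not tested. The share of Lck-001 differed by -17.8 to -9.5 percentage points and that of Grb2-002 by 3.6 to 6.3. The exact test of these shares cannot reach 0.05 with these libraries, so its count of 0 says nothing of stability. With all libraries, the replicate block changed no call among the members and no direction of the 12 genes. The lowest value of any member, 7.89 CPM for Cbl in wild-type 2, lay far above the floor of 3 counts, and with 3 libraries per genotype the spread between libraries sets the intervals. No batch but the number is given in the labels, and sex moves with genotype in numbers 1 and 2.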
